A study of Mus musculus with 18 samples.

Results

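Kap, the kidney androgen-regulated protein, and 8 other transcripts of the mouse proximal tubule (Odc1, Cyp4b1, Slco1a1, Gusb, Cyp2e1, Cyp2d9, Cyp4a12a and Cyp2j5) were followed through kidney RNA sequencing of ICR mice aged 10 weeks. The 9 genes were taken by symbol out of 19545 in the deposited table, and all 9 passed a filter that left 12385 genes for testing (at least 1 FPKM in at least 3 of 18 libraries). The list was chosen by Kap's level in 1 untreated library, control 3, where it lay far below the rest, so the values of that library and of the comparisons that use it are a description. FPKM scales the fragments of a gene by transcript length and by the total mapped, so that levels can be set side by side between genes of different length.

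The 18 libraries form 6 groups of 3. The control mice are labelled as untreated controls and the AOS mice as given AOS at 10 mg/kg, an abbreviation that the labels do not spell out. The HS mice had a high fat diet and STZ, the usual short name of streptozotocin, a toxin of the insulin-producing beta cells. The HS_AOS mice had the same diet and STZ with AOS at 10 mg/kg. The last 2 groups also had the diet and STZ, with an FMT labelled by AOS at 10 mg/kg (HS_AOS_FMT) or by control (HS_control_FMT), and the stated aim was to explore the effect of FMT on the kidney damaged by diet and STZ. FMT usually stands for transfer of faecal microbes. The labels give neither the sex of the mice nor a hormone level, the doses of STZ and the timing are not stated, and nothing says that the 3 libraries of a group came from separate mice. The p-values below therefore measure only the spread between these samples.

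In the mouse kidney, testosterone acts on the cells of the proximal tubule and changes which genes they transcribe. Kap, Odc1 and Gusb are classical androgen-induced transcripts of this segment, and many of its transporters and cytochrome P450 enzymes are more abundant in male than in female mice. Kap is among the most abundant messages of the male mouse kidney, while the function of the protein is little known.

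Control 3 stood apart from the other 17 libraries. It also held the most adrenal transcripts (13 markers summing to 692 FPKM, against 1.64 to 552 in the others, of which HS 3 had 552 and HS_AOS_FMT 2 had 354), and the injury markers summed to 2994 FPKM there against 470 to 799. The summed proximal tubule markers were lowest in it (11708 FPKM, against 12209 to 17034). Of these 26 markers, 8 were below all other libraries, where 6.75% of all genes were, and 2 were above, where 33.7% were. Control 3 lay above all 17 others for 7 of 8 markers of the thick ascending limb, 8 of 11 of the distal tubule and collecting duct, 6 of 6 of podocytes, 4 of 6 of endothelium and 7 of 9 of injury, where 33.7% of all genes did. In all 3 control libraries the male germ cell list summed to 30.9 to 42.7 FPKM, against 2.15 to 4.91 in the other groups. The part of these differences in the results below was not tested. Whether control 3 is the untreated kidney that its label names could not be settled from the files, so each comparison with control is given with and without it. Between 15773 and 17270 genes were above 0 in a library. The files give no read counts, so that depth is unknown.

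Kap was the most abundant transcript of the table in 17 of 18 libraries. Its level was 150876, 145522 and 15798 FPKM in control 1, 2 and 3, and 144521, 155154 and 153075 FPKM in the AOS libraries. It was 85520, 96123 and 100914 FPKM in the HS libraries and 66020, 71447 and 127320 FPKM in the HS_AOS libraries. It was 92651, 99883 and 125838 FPKM in HS_AOS_FMT and 98564, 90045 and 137570 FPKM in HS_control_FMT. All 12 libraries of mice on diet and STZ thus lay below controls 1 and 2 and the 3 AOS libraries, and control 3 lay below everything. Gpx3, which encodes the secreted glutathione peroxidase of the proximal tubule, was the highest transcript of control 3 at 40429 FPKM, and Kap ranked 2 there.

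Expressed as a share of the summed FPKM of its library, Kap made up 21.2, 20.9 and 2.48% in the control libraries and 20.3, 21.5 and 21.6% in the AOS libraries. The share was 12.7, 13.9 and 14.3% in HS and 10.3, 11.4 and 18.9% in HS_AOS. It was 14.2, 15.7 and 18.9% in HS_AOS_FMT and 14.7, 13.5 and 19.9% in HS_control_FMT. The other 8 genes together made up no more than 1.18% of any library, and 0.318% of control 3. By group mean, AOS was highest (21.2% ± 0.717, SD, n = 3), followed by HS_AOS_FMT (16.3% ± 2.43), HS_control_FMT (16.0% ± 3.40), control (14.8% ± 10.7), HS (13.7% ± 0.865) and HS_AOS (13.5% ± 4.70). Neighbours in this order below AOS differed by less than the SD of at least 1 of the 2 groups, whereas all 3 AOS libraries lay above those of HS_AOS_FMT. Without control 3 the control group came to 21.0% ± 0.220 (n = 2), next to AOS and with all 12 diet and STZ libraries below it.

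**Figure D1:**
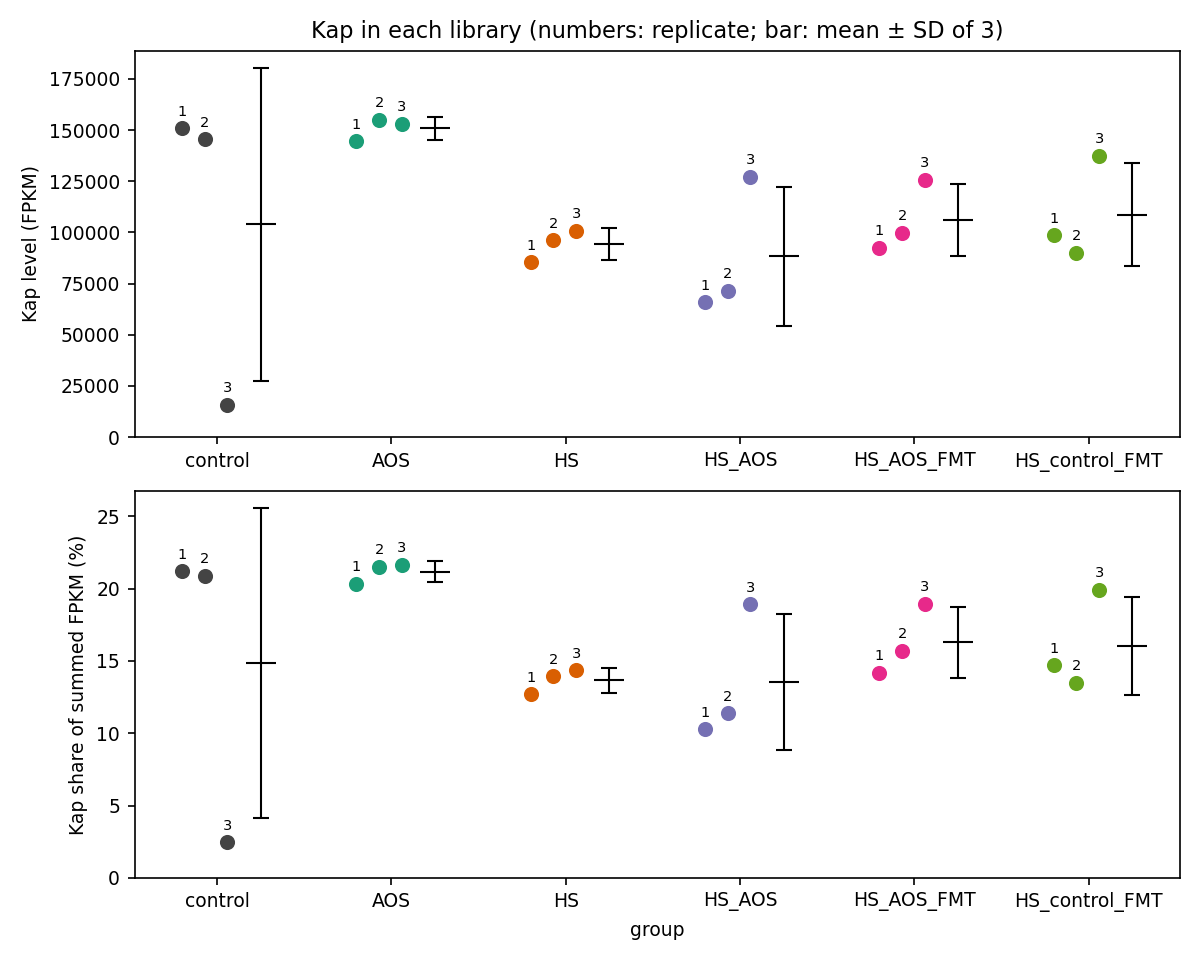
Kap in each of the 18 libraries, above in FPKM and below as a percentage of the summed FPKM of the library, both axes starting at 0. Points are libraries numbered by replicate and bars are the mean ± SD of 3. The AOS libraries lie at 20.3 to 21.6%, the 12 diet and STZ libraries at 10.3 to 19.9%, and control 3 at 2.48%.

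The split of Kap into high and low libraries was looked for across the table after the values were seen. Of 12385 genes, 35 (0.283%) had all 12 diet and STZ libraries below the 5 formed by AOS and controls 1 and 2, and 1.32% had them all above. Kap was the 1 of the 9 genes that did. Since these are bulk samples, fewer proximal tubule cells and less Kap RNA per cell cannot be told apart.

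Kap lies on the minus strand of chromosome 6 (chr6:133849855-133853667, GRCm38.p6). The 250 bases before the start site are shown for Kap and for the 2 genes that, with it, lay furthest below controls 1 and 2 in control 3 (Slco1a1 and Cyp4b1). This choice rests on 1 library. Over the 12 diet and STZ libraries Spearman's rho with Kap was 0.54 for Slco1a1 and 0.25 for Cyp4b1. The sequences are RefSeq's for GRCm38.p6, read 5′ to 3′ on the gene's strand, and end at the base before the start site. Capitals mark TATAA, the letters of a TATA box.
Kap, chr6:133853668-133853917, minus strand: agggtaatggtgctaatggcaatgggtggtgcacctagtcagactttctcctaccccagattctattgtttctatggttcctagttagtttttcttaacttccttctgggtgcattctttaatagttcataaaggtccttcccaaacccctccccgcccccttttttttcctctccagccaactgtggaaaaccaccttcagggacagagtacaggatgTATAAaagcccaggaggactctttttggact
Slco1a1, chr6:141946963-141947212, minus strand: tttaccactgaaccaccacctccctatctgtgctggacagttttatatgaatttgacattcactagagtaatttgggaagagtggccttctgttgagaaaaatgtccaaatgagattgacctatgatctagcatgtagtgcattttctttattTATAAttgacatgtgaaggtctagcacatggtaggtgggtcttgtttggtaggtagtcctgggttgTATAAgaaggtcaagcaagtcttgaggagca
Cyp4b1, chr4:115647722-115647971, minus strand: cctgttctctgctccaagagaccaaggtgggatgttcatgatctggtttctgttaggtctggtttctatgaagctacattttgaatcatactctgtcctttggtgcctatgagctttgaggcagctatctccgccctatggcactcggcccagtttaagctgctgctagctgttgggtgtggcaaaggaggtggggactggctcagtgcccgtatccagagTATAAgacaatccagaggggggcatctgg

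A promoter was found for 8 of the 9 genes. TATAA on the gene's strand was present in 6 of 8, against 16.0% of 32851 mouse promoters of the same length. In 5 of 8 it started 40 to 20 bases before the start site, which 3.52% of all promoters shared. The first base of the motif stood 31 bases upstream in Kap, Slco1a1 and Cyp2e1, 29 in Cyp4b1 and 26 in Cyp2d9. In Cyp2j5 the match lay 126 bases before the start site that ends its window (chr4:96664120-96664369, minus strand). Odc1 and Gusb, genes expressed in most tissues, had none in their windows. The windows of Cyp2j5 and Odc1 (chr12:17544623-17544872, plus strand) overlap the gene spans given below. Their start sites thus differ from the ends of those spans. The distance in Cyp2j5 and the absence in Odc1 hold for these windows alone. The motif was chosen after the sequences were seen, and a match describes letters, not a binding site.

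Odc1, which makes ornithine decarboxylase, the rate-limiting enzyme of polyamine synthesis, was at 1153, 948 and 267 FPKM in controls 1, 2 and 3 (chr12:17544808-17551502). It was at 825, 722 and 1142 FPKM in AOS and at 890, 469 and 683 FPKM in HS. It was at 412, 588 and 1186 FPKM in HS_AOS, at 629, 596 and 1048 FPKM in HS_AOS_FMT and at 794, 494 and 1385 FPKM in HS_control_FMT. Every pair of groups overlapped, and control 3 was the lowest of the 18 libraries. Odc1 has processed copies in the genome, and how the authors assigned shared reads is not given in the sources used here.

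Gusb, which encodes the lysosomal beta-glucuronidase that androgen raises in mouse kidney, was at 48.5, 45.6 and 15.2 FPKM in the controls (chr5:129989011-130003049). It was at 35.5, 31.7 and 30.7 FPKM in AOS, 22.6, 20.3 and 31.5 FPKM in HS and 12.8, 15.5 and 31.1 FPKM in HS_AOS. It was at 34.9, 25.3 and 36.2 FPKM in HS_AOS_FMT and at 28.9, 30.0 and 134 FPKM in HS_control_FMT. HS_control_FMT 3 therefore held more Gusb than any other library, and the lowest value was that of HS_AOS 1 rather than of control 3.

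Slco1a1, an organic anion uptake transporter of the tubule's luminal membrane, was at 235, 209 and 21.9 FPKM in the controls (chr6:141907281-141946962). It was at 178, 179 and 208 FPKM in AOS, at 176, 132 and 150 FPKM in HS and at 125, 177 and 274 FPKM in HS_AOS. It was at 174, 169 and 248 FPKM in HS_AOS_FMT and at 155, 115 and 249 FPKM in HS_control_FMT. Control 3 was far below the lowest other library (115 FPKM), and the AOS libraries lay just above those of HS. HS_AOS and HS_control_FMT spanned both, and HS_AOS_FMT overlapped both.

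Of the 5 P450 enzymes, Cyp4b1 was the most abundant on average. Cyp4b1, a monooxygenase of fatty acids and foreign compounds (chr4:115624698-115647721), was at 2700, 2477 and 492 FPKM in the controls and at 2807, 2837 and 2645 FPKM in AOS. It was at 2184, 1829 and 1519 FPKM in HS, at 2066, 2380 and 2217 FPKM in HS_AOS, at 2979, 2651 and 2736 FPKM in HS_AOS_FMT and at 2045, 1663 and 2968 FPKM in HS_control_FMT. Its HS_AOS_FMT libraries were all in the range of, or above, AOS and of controls 1 and 2, and all above HS and HS_AOS.

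Cyp2e1, which oxidises ethanol, acetone and small solvents (chr7:140763819-140774990), was at 1684, 1701 and 636 FPKM in the controls and at 1593, 1580 and 1558 FPKM in AOS. It was at 1239, 1180 and 1393 FPKM in HS, at 1559, 1340 and 1852 FPKM in HS_AOS, at 1628, 1705 and 1805 FPKM in HS_AOS_FMT and at 1220, 845 and 1991 FPKM in HS_control_FMT. The AOS libraries agreed closely (SD 17.8 FPKM around a mean of 1577), and the control group (SD 610 FPKM, control 3 included) and HS_control_FMT (SD 585 FPKM) spread most. Cyp2j5, which epoxidises arachidonic acid (chr4:96627432-96664171), varied least of the 9 genes (coefficient of variation 10.6% over the 17 libraries other than control 3, against 18.9 to 74.0% for the rest). It was at 697, 763 and 429 FPKM in the controls, at 754, 774 and 748 FPKM in AOS and at 612, 696 and 552 FPKM in HS. It was at 702, 773 and 886 FPKM in HS_AOS, at 793, 696 and 756 FPKM in HS_AOS_FMT and at 731, 629 and 730 FPKM in HS_control_FMT.

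Cyp4a12a, a male-predominant hydroxylase that makes 20-HETE, a vasoconstrictor, from arachidonic acid (chr4:115299046-115332815), was at 468, 527 and 110 FPKM in the controls and at 502, 513 and 411 FPKM in AOS. It was at 232, 392 and 279 FPKM in HS, at 304, 332 and 452 FPKM in HS_AOS, at 365, 357 and 401 FPKM in HS_AOS_FMT and at 311, 310 and 622 FPKM in HS_control_FMT. Its near-identical neighbour Cyp4a12b was listed at 1.66 to 10.9 FPKM, so that reads shared by the 2 genes could have been assigned to either. Cyp2d9, a steroid hydroxylase of a family of close copies (chr15:82452377-82456827), was at 130, 74.6 and 55.8 FPKM in the controls and at 120, 90.0 and 64.5 FPKM in AOS. It was at 66.6, 43.8 and 60.1 FPKM in HS and at 158, 38.2 and 23.2 FPKM in HS_AOS. It was at 30.3, 69.1 and 69.6 FPKM in HS_AOS_FMT and at 35.0, 26.6 and 63.6 FPKM in HS_control_FMT. The highest and the lowest Cyp2d9 of the series both came from HS_AOS, and its values are uncertain for the same reason.

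**Figure D2:**
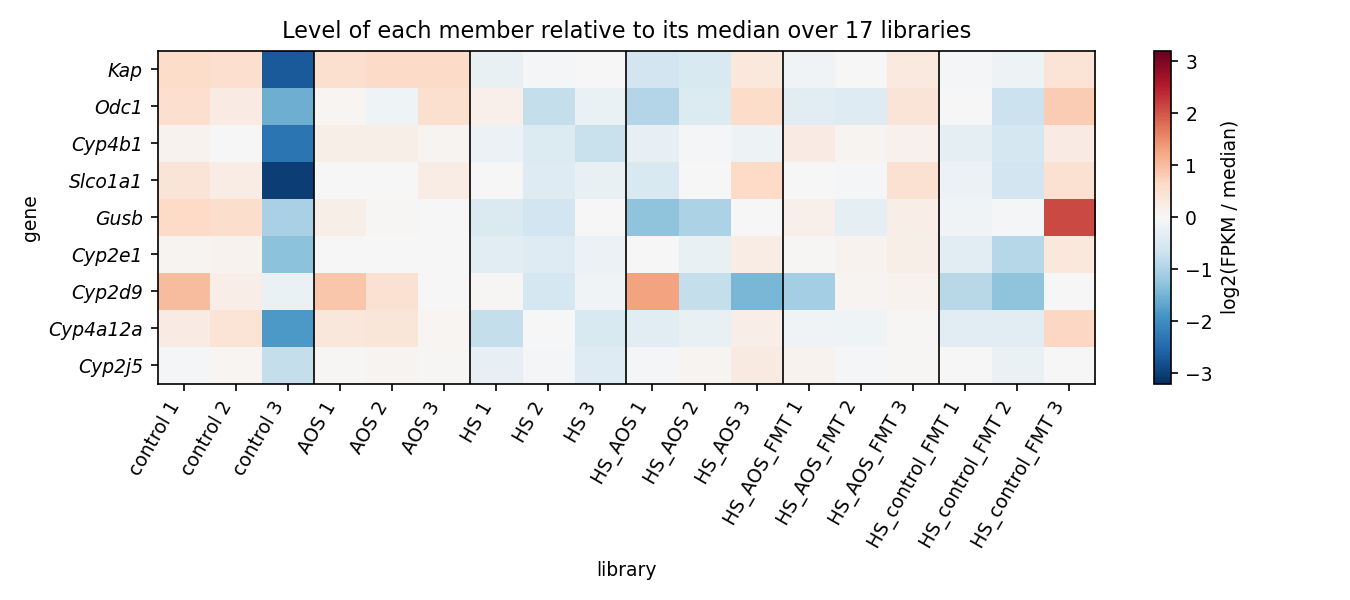
Each of the 9 genes in each of the 18 libraries, coloured by the log2 ratio of its FPKM to its own median over the 17 libraries other than control 3 (blue below, red above, scale from -3.2 to 3.2). Control 3 is blue for every gene, and Gusb in HS_control_FMT 3 (134 FPKM) is the reddest cell.

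In each of HS_AOS, HS_AOS_FMT and HS_control_FMT, 1 library had more of Kap, Odc1, Slco1a1, Gusb, Cyp2e1 and Cyp4a12a than the other 2 of its group. These were HS_AOS 3, HS_AOS_FMT 3 and HS_control_FMT 3. The same was not so of Cyp4b1, Cyp2j5 or Cyp2d9 in all 3 groups. Within-group spread in these groups was accordingly wide for Kap: 38.4% of the mean in HS_AOS, 16.4% in HS_AOS_FMT and 23.3% in HS_control_FMT, against 8.36% in HS and 3.73% in AOS.

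Control 3 lay below all 17 other libraries for 7 of the 9 genes (Kap, Odc1, Cyp4b1, Slco1a1, Cyp2e1, Cyp4a12a and Cyp2j5). Across the table this held for 6.75% of genes. Since the genes were gathered because of this library, nothing is read from the count. Gusb (15.2 FPKM, lowest elsewhere 12.8) and Cyp2d9 (55.8 FPKM, lowest elsewhere 23.2) were within the range of the others. The mean of controls 1 and 2 exceeded control 3 by 10.1-fold for Slco1a1, 9.38-fold for Kap, 5.27-fold for Cyp4b1, 4.52-fold for Cyp4a12a and 3.94-fold for Odc1. The ratio was 3.10 for Gusb, 2.66 for Cyp2e1, 1.84 for Cyp2d9 and 1.70 for Cyp2j5.

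Among 8 further kidney genes known to be raised by androgen or to be higher in males, control 3 was below all 17 others for 6. Across the table this held for 6.75% of genes. The list was drawn up with earlier results of these data known, so the count is a description and not independent support. Acsm3, a mitochondrial medium-chain acyl-CoA synthetase, was at 66.2 FPKM against a mean of 613 in controls 1 and 2, a 9.26-fold gap. Slc7a13, an amino acid transporter of the last proximal segment, was at 99.4 FPKM against 507, and the anion transporter Slc22a30 at 37.0 FPKM against 204. Cyp2j13 was at 48.9 FPKM against 228, Adh1, alcohol dehydrogenase, at 385 against 846, and Slc22a6, the anion transporter Oat1, at 285 against 527. Nudt19 (160 FPKM) was within the range of the others, and Cyp4a12b (10.9 FPKM, at most 7.83 elsewhere) was above it.

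Of 6 kidney genes known to be higher in females, control 3 was above all 17 others for 4, beside the 33.7% of all genes that were, so nothing particular to this list is read from the count. Slc7a12, an amino acid transporter, was at 19.3 FPKM there and at no more than 1.32 elsewhere. Prlr, the prolactin receptor, was at 9.08 FPKM (at most 2.43 elsewhere), the efflux pump Abcc3 at 3.48 FPKM (at most 1.26) and Cyp4a14 at 227 FPKM (at most 68.8). Slc22a19 (52.1 FPKM) and Slc22a7 (38.9 FPKM) were within the range of the others. The 4 Y-linked genes Ddx3y, Eif2s3y, Kdm5d and Uty were present in all 18 libraries and lowest in control 3 (summing to 44.2 FPKM, against 56.7 to 83.3), and Xist was not analysed here.

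**Figure D3:**
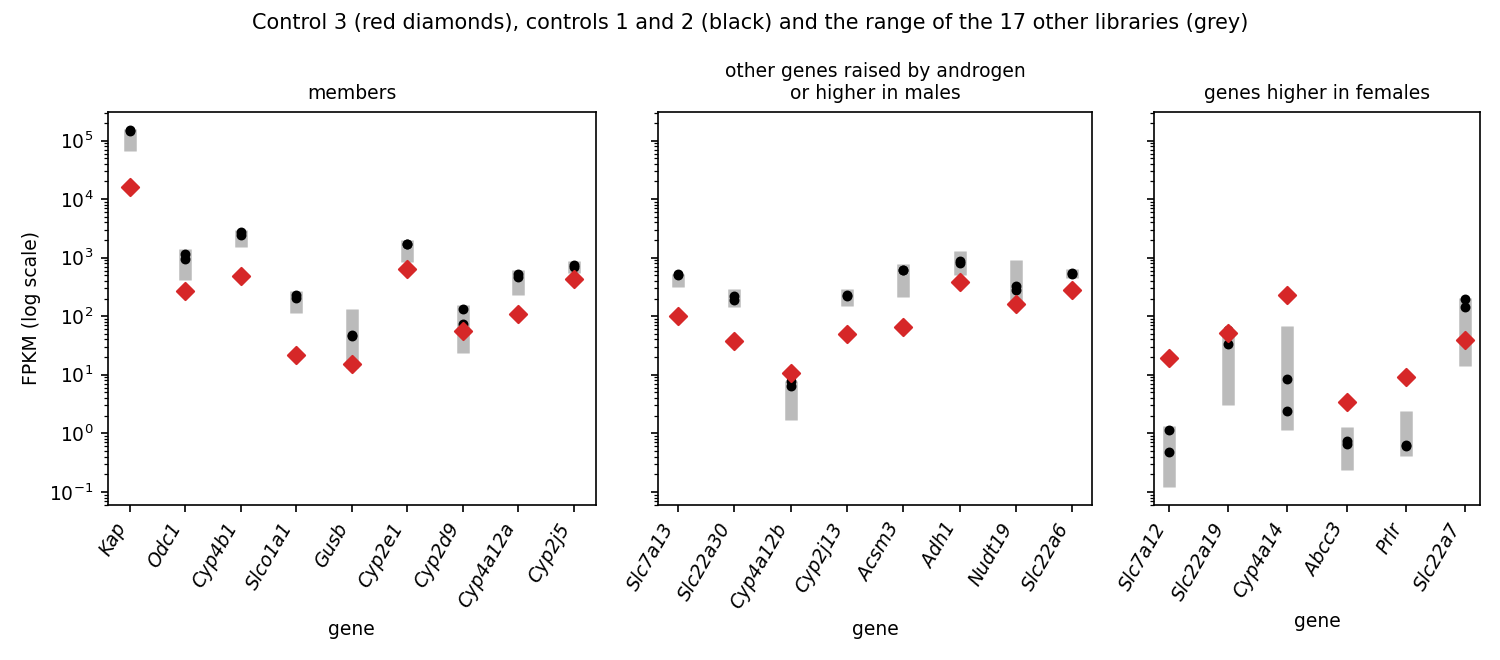
Levels in FPKM on a log axis of the 9 genes (left), of 8 other genes raised by androgen or higher in males (middle) and of 6 genes higher in females (right). Red diamonds are control 3, black points controls 1 and 2, and grey bars the range of the 17 other libraries. The diamond lies under the bar for 7 of 9, 6 of 8 and 0 of 6 genes, and above it for 0, 1 and 4. Of all genes, 6.75% lay under and 33.7% above in this way.

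The effect of diet and STZ was read from HS against control. With all libraries in the fit (limma on log2 of FPKM + 1, Benjamini-Hochberg adjustment over 12385 genes), 0 of the 9 genes passed an adjusted p of 0.05, and 0.0646% of all genes did. At an unadjusted p under 0.05 there were 0 of 9 and 6.63% of all genes. The groups overlapped for all 9, where 4.59% of all genes were higher and 3.95% lower without overlap. The adjusted p of the 9 genes ran from 0.933 to 0.998. The median log2 difference of the 9 was 0.01, against 0.00 over all genes. Kap was 0.42 higher in HS on this scale (SE 0.602), although its mean FPKM was lower (94185 against 104065). A fold on this scale understates the change of genes near 1 FPKM, which none of the 9 is.

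Without control 3 all 9 genes were lower in HS than in control, and for all 9 the HS libraries lay below both remaining controls. Among all genes 8.32% were lower without overlap in this way and 26.5% higher. The log2 difference was -0.66 for Kap (SE 0.235), -0.75 for Cyp4a12a (SE 0.277) and -0.50 for Cyp4b1 (SE 0.185), the 3 genes with an unadjusted p under 0.05. After adjustment over 12289 genes, limma gave a p of 0.263, 0.278 and 0.274 for them, so that 0 of 9 passed. Here 0.0488% of all genes passed, and 13.6% had an unadjusted p under 0.05.

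The other 6 genes had log2 differences of -0.92 (Gusb), -0.81 (Cyp2d9), -0.67 (Odc1), -0.54 (Slco1a1), -0.42 (Cyp2e1) and -0.24 (Cyp2j5) in the same fit. The median of the 9 was -0.66, against 0.08 over all genes. Of the 8 further androgen or male genes, 8 were below 0 too, with a median of -0.36 and 0 past the adjusted threshold. Not all were without overlap: HS 1 lay above both controls for Slc22a6 (591 FPKM) and Nudt19 (445 FPKM), as did HS 3 for Adh1 (872 FPKM). The proximal tubule markers were split 13 to 13, with a median of 0.01, in the same comparison. For Kap, Cyp4b1, Slco1a1, Cyp2e1 and Cyp2j5 the direction thus changed when control 3 was left out.

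A second comparison of the same kind, HS_AOS against AOS, uses no control library and was added after the values were seen. Kap was at 88262 ± 33934 FPKM in HS_AOS and at 150917 ± 5635 FPKM in AOS (mean ± SD, n = 3), and the 2 groups did not overlap. The log2 difference was -0.84 (SE 0.602, limma adjusted p = 0.423) with all libraries in the fit, which share 1 estimate of the spread. When control 3 did not enter that estimate the difference was the same and the SE 0.211, and Kap passed (adjusted p = 0.0228), as did 11.8% of all genes. It did not pass when HS_AOS and AOS were fitted alone (adjusted p = 0.0862), and without HS_AOS 3 the difference with all other libraries was -1.14 (adjusted p = 0.383).

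Cyp4b1 was also lower in HS_AOS without overlap (2221 ± 157 against 2763 ± 103 FPKM, n = 3). Its log2 difference was -0.32 (SE 0.450, limma adjusted p = 0.708, and 0.214 without control 3). Of the 9 genes 2 were lower without overlap and 0 higher, against 7.54% and 26.3% of all genes. In all, 8 of 9 were below 0 with a median of -0.40, against 0.10 over all genes. In the same comparison 19 of 26 proximal tubule markers were above 0 (median 0.26), and 3 were called higher: Pck1, the gluconeogenic enzyme (2204 ± 416 against 576 ± 78.6 FPKM, adjusted p = 0.0215), the sulfate transporter Slc13a1 (228 ± 8.21 against 147 ± 17.6 FPKM, adjusted p = 0.0323) and the bicarbonate transporter Slc4a4 (154 ± 29.6 against 98.4 ± 7.36 FPKM, adjusted p = 0.0209). Of the podocyte markers 6 of 6 were above 0 (median 0.51), with 0 called. All 8 markers of the thick ascending limb were below 0 (median -0.46), and Umod, which encodes uromodulin, was called lower (326 ± 94.4 against 733 ± 178 FPKM, adjusted p = 0.0419). The macrophage receptor gene Csf1r was called lower too (9.51 ± 1.08 against 16.9 ± 2.06 FPKM, adjusted p = 0.0323). It was the 1 called of 7 macrophage markers, of which 3 were above 0 and 4 below (median -0.01). The part of these shifts in the lower Kap was not tested. With all libraries 0 of the 9 genes were called and 0 had an unadjusted p under 0.05, against 3.89% and 23.7% of all genes.

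AOS in HS mice was read from HS_AOS against HS, where 2.30% of all genes passed and 0 of the 9 did. At an unadjusted p under 0.05 there were 0 of 9 and 20.3% of all genes. Cyp2j5 was the 1 gene of the 9 whose groups did not overlap (787 against 620 FPKM on average), where 13.6% of all genes were higher in this way and 11.1% lower. Its log2 difference was 0.34 (SE 0.166, limma adjusted p = 0.261, and 0.0535 without control 3, where 6.74% of all genes passed). The median of the 9 was 0.27, with 6 above 0, against 0.01 over all genes. The 26 proximal tubule markers had a median of 0.19 in this comparison, with 22 above 0 and 0 called. Kap overlapped: HS_AOS 1 and 2 lay below all HS libraries and HS_AOS 3 above them.

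AOS without diet and STZ was read from AOS against control, in which all 9 genes were above 0 with control 3 counted and 0 passed (0.0646% of all genes did). The median of the 9 was 0.41, against -0.09 over all genes, and Kap differed by 1.10 on the log2 scale (SE 0.602, limma adjusted p = 0.674). Of the 9, 0 had an unadjusted p under 0.05 (7.28% of all genes) and 0 were without overlap (2.98% of all genes higher, 10.1% lower). Without control 3, 3 of 9 were above 0 and 6 below, and Kap differed by 0.03 (SE 0.235). Slco1a1, Gusb and Cyp2e1 were lower in AOS without overlap (log2 differences of -0.23, -0.52 and -0.10), where 14.2% of all genes were lower and 11.8% higher. For Slco1a1 the groups were barely apart (208.46 FPKM in AOS 3 against 208.54 in control 2). The limma adjusted p was 0.998 for each of the 9, 0 of 12289 genes passed, and 3.24% had an unadjusted p under 0.05. The difference between the effect of AOS in HS mice and in untreated mice passed for 0 of the 9 genes with control 3 (0.0727% of all genes) and for 0 without it (0 of 12289). At an unadjusted p under 0.05 there were 0 of 9 in both, against 15.0% and 13.6% of all genes. For Kap this difference of effects was -1.26 (SE 0.851) with control 3 and -0.18 (SE 0.316) without it.

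HS_AOS_FMT was compared with HS, and 3 of the 9 genes were higher without overlap: Cyp4b1, Cyp2e1 and Cyp2j5. Of all genes, 15.8% were higher in this way and 13.7% lower. All 3 encode P450 enzymes, but the P450 genes Cyp4a12a and Cyp2d9 overlapped. For Cyp2j5 the groups were barely apart (696.41 FPKM in HS_AOS_FMT 2 against 696.05 in HS 2). Cyp4b1 was at 2789 ± 170 FPKM against 1844 ± 333 FPKM in HS (mean ± SD, n = 3). The log2 difference was 0.61 (SE 0.450, limma adjusted p = 0.505), and in a fit without control 3 the SE was 0.166 and Cyp4b1 passed (adjusted p = 0.0475), as did 5.04% of all genes. It did not pass when the 2 groups were fitted alone (adjusted p = 0.0651) or when HS 3 and HS_AOS_FMT 2 were left out with control 3 (0.51, adjusted p = 0.312).

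Cyp2e1 was at 1713 ± 88.7 FPKM against 1271 ± 110 FPKM in HS, a log2 difference of 0.43 (SE 0.322, limma adjusted p = 0.510, and 0.240 without control 3). Cyp2j5 differed by 0.28 (SE 0.166, adjusted p = 0.411, and 0.118 without control 3). With all libraries 0 of 9 passed, against 0.977% of all genes, and 0 of 9 had an unadjusted p under 0.05, against 18.1%. The median of the 9 was 0.35 and 8 were above 0, where the median of all genes was 0.00. The 26 proximal tubule markers had a median of 0.17 in this comparison, with 21 above 0 and 0 called.

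HS_control_FMT against HS had 0 of the 9 genes called (0.751% of all genes), 0 with an unadjusted p under 0.05 (15.2%) and 0 without overlap (6.53% of all genes higher, 18.8% lower). The median was 0.19, against -0.08 over all genes. The largest difference, named after the values were seen, was that of Gusb (log2 0.98, SE 0.526, limma adjusted p = 0.395), where HS_control_FMT 3 was the 1 library outside the range of HS. HS_AOS_FMT against HS_control_FMT had 0 of 9 called (3.99% of all genes), 0 with an unadjusted p under 0.05 (19.8%) and 0 without overlap (21.8% of all genes higher, 7.56% lower), with a median of 0.10 against 0.07 over all genes. Of the proximal tubule markers 21 of 26 were above 0 there (median 0.26), and the amino acid transporter Slc6a19 was called higher (115 ± 36.0 against 48.9 ± 3.96 FPKM, adjusted p = 0.0424). The comparisons share the HS libraries or the FMT libraries and are not independent of each other.

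**Figure D4:**
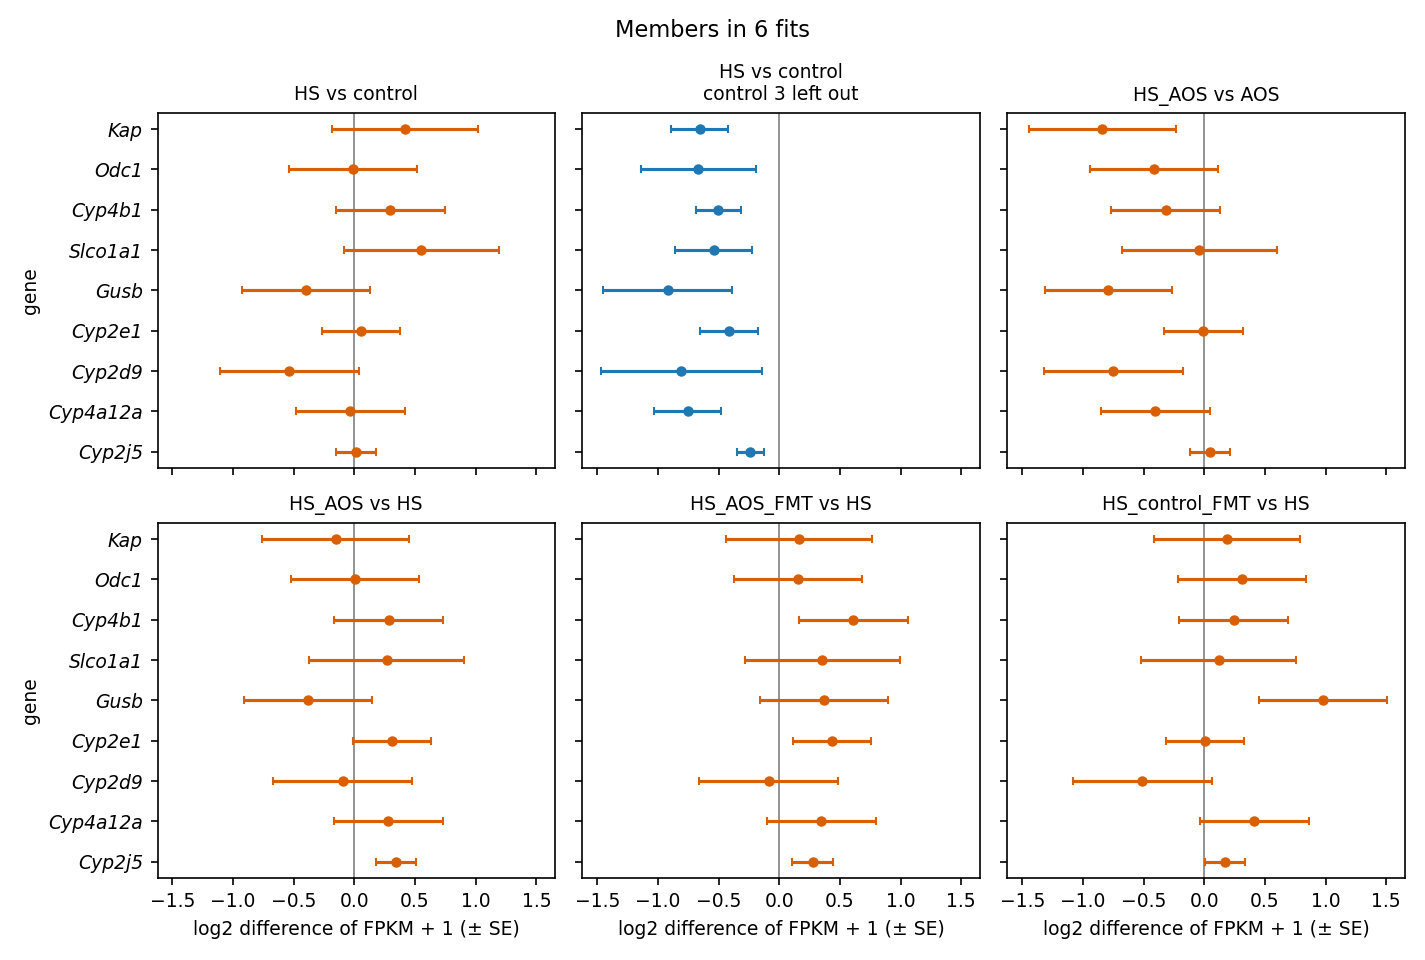
Log2 difference of FPKM + 1 with its SE for the 9 genes in 6 fits: HS against control with control 3 (top left) and without it (top middle, blue), HS_AOS against AOS, HS_AOS against HS, HS_AOS_FMT against HS and HS_control_FMT against HS. All 9 points lie below 0 in HS against control without control 3, while with it 5 lie above 0.

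The genes around the 9 were examined by list. In the polyamine pathway without Odc1, 13 of 14 genes were tested. Azin1, an inhibitor of the antizymes, which target ornithine decarboxylase for degradation, was higher in HS_AOS than in HS (43.0 ± 6.04 against 31.5 ± 3.70 FPKM, n = 3, log2 0.43, SE 0.109, limma adjusted p = 0.0495), and it was the 1 gene of the list called there. Oaz3, the antizyme of male germ cells, was listed at 0 in the HS and AOS libraries and averaged 2.89 FPKM in control. It was called lower in both comparisons with control, as were Prm1, Prm2, Tnp1 and Tnp2 of the male germ cell list, which package sperm DNA. The control libraries held 9.07 to 14.5 FPKM of Prm1 and 3.60 to 11.1 FPKM of each of the other 3. All 4 were likewise listed at 0 in HS and AOS. All 5 were also called in the difference between the effects of AOS in HS mice and in untreated mice. That term repeats their level in control, since they were at no more than 0.2 FPKM in AOS, HS and HS_AOS. The 5 genes reached 1 FPKM in the control libraries alone, and so passed the filter only through the group where they were high. Nothing is therefore read from their calls, and without control 3 they were not tested. Sat1, Oaz1 and Oaz2, the most abundant of the list, passed in none of the 8 comparisons with all libraries in the fit.

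Among 13 steroid receptors and steroid-converting enzymes, 10 were tested. Hsd17b2, which inactivates testosterone and estradiol, was lower in HS_AOS than in AOS (4.85 ± 1.93 against 13.3 ± 2.70 FPKM, log2 -1.33, limma adjusted p = 0.0199). Nr3c1, the glucocorticoid receptor, was higher in HS_AOS_FMT than in HS_control_FMT (21.9 ± 1.34 against 15.2 ± 1.47 FPKM, log2 0.50, adjusted p = 0.0190). The other 8 tested members were not called in any of the 8 comparisons with all libraries in the fit.

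Of 18 tested P450 enzymes and partners outside the 9, Cyp2j9 was the 1 called, in HS_AOS_FMT against HS_control_FMT (12.4 ± 0.141 against 7.32 ± 0.425 FPKM, log2 0.69, limma adjusted p = 0.0421). Of the 6 female genes, Cyp4a14, a fatty acid hydroxylase, was higher in HS_AOS than in AOS (61.8 ± 5.09 against 1.31 ± 0.206 FPKM, log2 4.77, adjusted p = 0.0415). Slc22a19 was lower there (14.5 ± 15.3 against 45.9 ± 10.2 FPKM, log2 -2.09, adjusted p = 0.0433). None of the 8 further androgen or male genes and none of 18 lysosomal hydrolases, the class of Gusb, was called in any of the 8 comparisons with all libraries in the fit.

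The genes whose levels followed Kap most closely were ranked by Spearman's rho over the 18 libraries among 5936 genes with a mean of at least 10 FPKM. They were Ivd (rho 0.94), an enzyme of leucine breakdown, Serpinf2 (0.93), which encodes alpha-2-antiplasmin, Cmtm6 (0.92), Treh (0.92), the brush-border trehalase, and Galns (0.91), a lysosomal sulfatase. Without control 3 their rho was 0.90 to 0.92, and over the 12 diet and STZ libraries alone 0.84 to 0.94. The median over all ranked genes was -0.22 over 18 and -0.10 over the 12. The libraries share group, preparation and the total to which FPKM is scaled, so rho is given as a description.

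Of the other 8 genes, Cyp4a12a (rho 0.83 over 18 and 0.66 over the 12 diet and STZ libraries), Gusb (0.76 and 0.78), Odc1 (0.73 and 0.75) and Slco1a1 (0.72 and 0.54) followed Kap most. Cyp2e1 had a rho of 0.57 and 0.63. Cyp4b1 had 0.57 over 18 but 0.25 over the 12, Cyp2j5 0.42 and 0.19, and Cyp2d9 0.38 and -0.08. The 95th percentile of all ranked genes over the 12 was 0.54. Among the further androgen or male genes, Adh1 (0.91 over the 12), Acsm3 (0.81) and Slc7a13 (0.80) were closest to Kap, and Slc22a6 had a rho of -0.27. Of the genes higher in females, Slc22a7 (0.73 over the 12) and Slc22a19 (0.54) rose with Kap too, and Cyp4a14 (-0.59) went the other way. Following Kap was thus not particular to androgen or male genes. The genes plotted against Kap were picked after these values were seen.

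**Figure D5:**
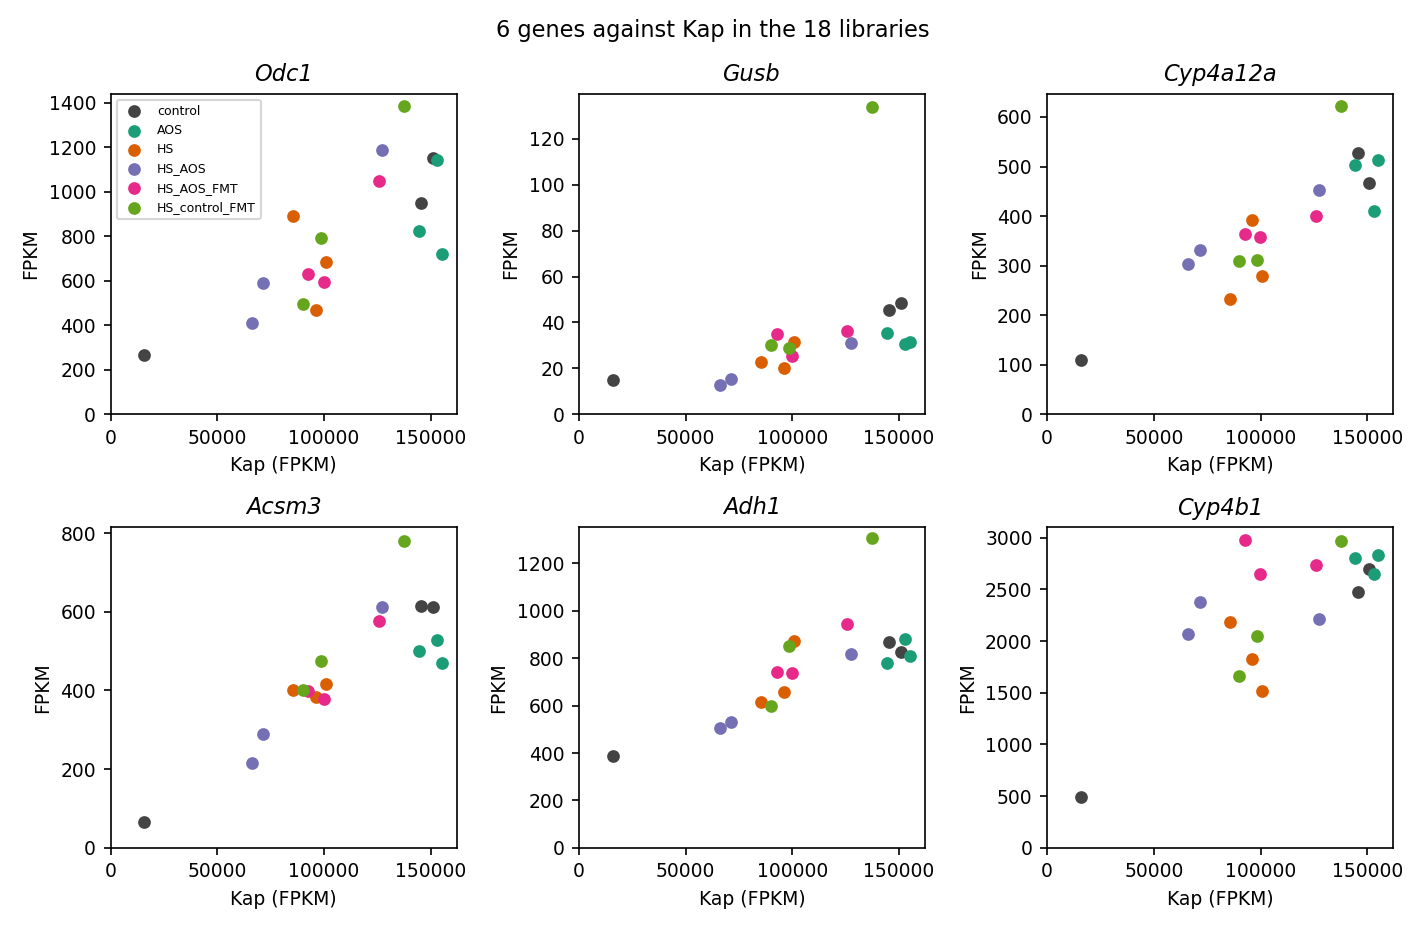
Level in FPKM of Odc1, Gusb, Cyp4a12a, Acsm3, Adh1 and Cyp4b1 against that of Kap in FPKM, all axes starting at 0, with 1 point per library coloured by group. Acsm3 and Adh1 rise with Kap through the 12 diet and STZ libraries (rho 0.81 and 0.91), Cyp4b1 hardly does (rho 0.25), and Gusb in HS_control_FMT 3 stands above all other points.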

How the data were processed

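The authors deposited FPKM values, 1 for each gene symbol in each library, rounded to 2 decimals. The unit was read from the values: weighted by transcript length, the libraries' totals varied by 0.930% (coefficient of variation), and unweighted by 4.29%. Bowtie 0.12.2 and the build mm10 are named in the submitters' processing notes. The sources used here do not give the counting program, annotation, strandedness or filters. The 3 symbols present more than once were kept as separate rows.

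No counts are given, so the test on counts that had been foreseen was not used. Genes reaching 1 FPKM in 3 or more of the 18 libraries were tested on log2(FPKM + 1) with limma 3.58.1 in R 4.3.3 (trend and robust options, 6 group means, 12 residual degrees of freedom, Benjamini-Hochberg over 12385 genes, threshold 0.05). Simulated data of 12260 tested genes had independent noise, with each gene's within-group spread over the 18 libraries. Of the more abundant genes, 200 were raised in HS_AOS. In HS_AOS against HS, 91% of those changed 2-fold and 98% of those changed 4-fold were recovered, with 11 false calls. These rates are not those of the 9 genes, whose SEs there ran from 0.166 (Cyp2j5) to 0.639 (Slco1a1), with 0.602 for Kap. All 9 genes are described. A difference is given for each one that passed or whose groups did not overlap, with or without control 3, besides Kap in every control comparison. The 5 genes most like Kap were named by Spearman's rho, and list members if they passed with all libraries in the fit or, in control 3, belonged to the male and female lists. The rule also covered the 3 most abundant members of each list, of which those of the polyamine pathway are given. One gene of a list is not reported here. The genes and lists were chosen with earlier results of these data known. Positions and promoters come from RefSeq (GRCm38.p6) and transcript lengths from GENCODE. Alternatives changed the normalization, pseudocount, filter, variance model, replicate block and the libraries in the fit.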

Additional observations from a re-analysis of the deposited data

How the results depend on the processing

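With all libraries in the fit, 0 of the 9 genes were called in each of 8 comparisons. This stayed at 0 under every alternative tried except when control 3 was left out: 1 gene was then called in HS_AOS_FMT against HS (Cyp4b1) and 1 in HS_AOS against AOS (Kap), the latter also with HS 3 and HS_AOS_FMT 2 left out (1 gene). Leaving out single libraries of the compared groups gave 0 to 0 called genes in each comparison. Counting Kap by FPKM times transcript length, which follows reads, gave mean shares of 7.45% in AOS, 4.61% in HS, 4.33% in HS_AOS, 5.29% in HS_AOS_FMT and 5.38% in HS_control_FMT, smaller by construction because the transcript is short.

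In HS against control, the log2 difference without control 3, and then also without HS 3 and HS_AOS_FMT 2, was -0.66 and -0.71 for Kap, -0.50 and -0.37 for Cyp4b1, -0.54 and -0.53 for Slco1a1, -0.42 and -0.49 for Cyp2e1 and -0.24 and -0.16 for Cyp2j5, where it was above 0 with all libraries. Cyp2j5 was at -0.064 after quantile normalization and at -0.028 with libraries rescaled to an equal sum without Kap. The cause was not tested. Leaving out 1 library at a time gave -0.66 to 0.97 for Kap, -0.67 to 0.39 for Odc1, -0.50 to 0.72 for Cyp4b1, -0.54 to 1.14 for Slco1a1, -0.42 to 0.29 for Cyp2e1, -0.75 to 0.37 for Cyp4a12a and -0.24 to 0.17 for Cyp2j5. In AOS against control the value in both reduced fits was -0.23 for Slco1a1, -0.52 for Gusb and -0.10 for Cyp2e1, and the ranges over single libraries were -0.23 to 1.45, -0.52 to 0.29 and -0.10 to 0.61. Quantile normalization sets Kap to a difference of 0 in HS_AOS against AOS, since it is the top-ranked gene of all 6 libraries.

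The replicate numbers of the titles were tried as a replicate block, under which 0 of 9 genes were called in every comparison. Of 45 same-numbered pairs of libraries, 14 had deviations from the group means correlated above 0.1 (range -0.356 to 0.312). Of the number 3 libraries that were highest of their groups for the same 6 genes, HS_AOS correlated with HS_AOS_FMT at 0.220 and with HS_control_FMT at 0.251, while the latter 2 correlated at 0.012. Since not every pair was above 0.1 and the labels name nothing shared, the numbers were not taken to pair the samples. Shares without mitochondrially encoded genes were not run, since 0 rows of the table carry such symbols. Without counts, the precision of low values such as Cyp2d9 and Gusb is unknown.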
